A study of Homo sapiens with 16 samples.

Results

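The NF-kB transcription factors are built from 5 subunits, encoded by RELA, NFKB1, REL, NFKB2 and RELB, and these 5 genes, of 19962 protein-coding genes in GENCODE 44, were taken by name and followed through 16 lists of H3K27ac ChIP-seq peaks. H3K27ac, acetylation of lysine 27 on histone H3, marks active promoters and enhancers. The lists came from MDA-MB-231 and Hs578T cells, established human triple-negative breast cancer (TNBC) lines, each with a control and an Fn14 knockout (KO) version. Fn14, the product of TNFRSF12A, is the receptor for the cytokine TWEAK. Cells of every group were starved for 8 h in Opti-MEM and then either left untreated or given TWEAK at 10 ng/ml for 48 h, with a fresh dose at 24 h. The 8 groups, namely control untreated, control TWEAK, Fn14 KO untreated and Fn14 KO TWEAK in each line, held 2 replicates each. The KO cells were made with an inducible Cas9 vector and guides against Fn14, and the study's supplement speaks of genotyped CRISPR clones without saying which clone, or how many, entered the ChIP-seq. The study describes its cell line ChIP-seq replicates as biological, and p-values measure the spread between these lists.

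NF-kB subunits act as dimers that wait in the cytoplasm and enter the nucleus when a signal releases them. In the canonical pathway, RELA (p65) and REL (c-Rel) carry the transactivation domains and pair with p50, which is processed from the p105 product of NFKB1, after the IkB proteins that hold them are degraded. In the non-canonical pathway, the kinase NIK accumulates and the p100 product of NFKB2 is processed to p52, which pairs with RELB. TWEAK is known to engage both arms through Fn14 and the TRAF adaptors, and several of the subunit genes are themselves known NF-kB targets. In its own cell lines the study reported, from immunoblots, that TWEAK activated the non-canonical arm and left the canonical arm unaffected.

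The 16 lists held 39544 to 47197 peaks. Median −log10 q-values were 5.79 to 7.69 in MDA-MB-231 Fn14 KO lists and 9.44 to 10.8 in MDA-MB-231 control lists. Promoter peaks of VIM, CD44, AXL, ZEB1 and FN1, markers of mesenchymal TNBC cells, were present in all 16 lists, as were those of KRT8 and the epithelial gene EPCAM. KRT8 had been chosen with ESR1, PGR, GATA3 and FOXA1 as a luminal gene that should lack a promoter peak. ESR1, PGR, GATA3, CDH1 and the leukocyte genes PTPRC and CD3E had none in any list. FOXA1 had a promoter peak in 2 lists, PECAM1 in 6 and CDH5 in 0. Fold enrichment at the TNFRSF12A promoter was 32.6 to 38.2 in control lists and 16.2 to 22.3 in KO lists, which does not test the knockout itself.

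Each gene was described by 3 measures. Covered length was the base pairs under peaks within the gene body extended by 50 kb on each side. Promoter enrichment was the highest fold enrichment over local background, as written by the authors' peak caller, among peaks within 2 kb of the start site, and promoter peak width was the summed width of those peaks. All values given per list are as deposited. Fold changes and tests used limma on the log2 scale, log2(kb + 1) for covered length, with each list centred on its median over the genes tested and p-values adjusted by Benjamini-Hochberg over all genes (16613 for covered length, 10904 for the promoter measures). All 5 genes passed both filters, and each had 1 promoter peak in every list.

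On hg38, RELA lies on chromosome 11 from 65653599 to 65663090 on the minus strand, NFKB1 on chromosome 4 from 102501330 to 102617302, REL on chromosome 2 from 60881491 to 60931612, NFKB2 on chromosome 10 from 102394110 to 102402524 and RELB on chromosome 19 from 45001461 to 45038192, the last 4 on the plus strand. The windows of NFKB1 and REL held no start site of another protein-coding gene, whereas those of RELA, NFKB2 and RELB took in promoters of neighbours such as MAP3K11, KAT5 and SIPA1, FBXL15, PSD and CUEDC2, and CLPTM1, CLASRP and GEMIN7. Covered length in these 3 windows therefore includes acetylation at other genes' promoters.

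The sequences shown are the NFKB2 promoter and the 2 TWEAK-only stretches with a kappaB match, of the 5 longest stretches at NFKB1 and NFKB2 that peaks of all 4 TWEAK control lists and no untreated control list covered. The other 3, 1 at NFKB1 (chr4:102607989-102608272) and 2 at NFKB2 (chr10:102393338-102393644 and chr10:102396927-102398783), held no kappaB and no AP-1 match. A shorter stretch covered in this way at NFKB2, which had 3, was left out of this search. The promoter is from RefSeq (GRCh38.p14), chr10:102395455-102395692, and ends at an annotated exon just before the start site at 102395705. The other 2 are 300-base windows, read from hg38, of the intronic NFKB1 stretches, chr4:102552899-102553198 and chr4:102564314-102564613. Each was centred on the kappaB match found by searching its whole stretch, of 1268 and 578 bp. All are plus strand, and capitals mark matches on either strand to the kappaB consensus, the binding motif of NF-kB dimers, or to the AP-1 motif TGANTCA, where N is any base.
NFKB2 promoter: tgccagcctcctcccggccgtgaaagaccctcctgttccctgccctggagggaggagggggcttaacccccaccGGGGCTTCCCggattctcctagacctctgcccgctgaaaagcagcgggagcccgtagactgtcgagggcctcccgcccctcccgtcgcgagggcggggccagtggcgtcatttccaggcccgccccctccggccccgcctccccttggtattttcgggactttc
NFKB1 intronic stretch at +51.5 kb: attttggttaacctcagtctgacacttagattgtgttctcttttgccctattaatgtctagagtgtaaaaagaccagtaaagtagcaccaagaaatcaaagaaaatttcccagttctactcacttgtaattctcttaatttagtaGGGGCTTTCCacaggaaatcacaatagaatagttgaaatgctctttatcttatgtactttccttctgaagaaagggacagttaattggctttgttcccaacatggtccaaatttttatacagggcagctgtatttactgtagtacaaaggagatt
NFKB1 intronic stretch at +63.0 kb: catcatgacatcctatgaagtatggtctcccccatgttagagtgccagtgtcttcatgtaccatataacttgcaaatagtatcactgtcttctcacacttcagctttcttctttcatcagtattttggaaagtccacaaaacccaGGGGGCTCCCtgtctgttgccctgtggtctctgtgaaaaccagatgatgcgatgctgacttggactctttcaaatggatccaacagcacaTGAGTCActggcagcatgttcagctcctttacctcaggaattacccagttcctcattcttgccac

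The NFKB1 stretch at +51.5 kb held the kappaB match GGGGCTTTCC, the same 10 letters as a match 78 bases before an alternative NFKB2 start that lies 1127 bp upstream of the main one. The stretch at +63.0 kb held the kappaB match GGGGGCTCCC and the AP-1 match TGAGTCA. In the 300-base RefSeq promoters, NFKB2 held GGGGCTTCCC and GGGACTTTCC at its main start (the latter crosses into the exon and is not in the printed run). At the alternative start named above it held the overlapping GGGAATTCCC and GGAATTCCCC and also GGGGCTTTCC, and at the start 102394110 none. NFKB1 held GGGAATTTCC at its main start and none at the start 102501934. REL held the overlapping matches GGGAAATTCC and GGAAATTCCC, and RELA held none at either of its starts. The RELB promoter was not searched. A kappaB match occurred in 11.3% of 35116 RefSeq promoters of this length and an AP-1 match in 7.71%. Among the middle 300 bases of consensus regions (merged peaks present in at least 2 lists) kappaB matches occurred in 8.69% and AP-1 matches in 26.2%, and among the 1367 regions gained after TWEAK in control cells of both lines these shares were 26.6% and 33.4%. The printed NFKB1 windows were placed on their matches, so these shares of fixed windows are no measure for them. A match describes the letters only and is not evidence of binding.

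NFKB2, the non-canonical p100 and p52 gene, showed the clearest change at a promoter, where the H3K27ac peak was 2.32-fold wider after TWEAK in control cells of both lines. In MDA-MB-231 control cells the peak was 2844 and 3280 bp wide in the untreated lists and 6743 and 7007 bp in the TWEAK lists. In Hs578T control cells it was 2875 and 2848 bp untreated and 6650 and 6448 bp after TWEAK. Fn14 KO lists ranged from 2707 to 3407 bp with or without TWEAK, so the 4 TWEAK control lists stood apart from the other 12 with no overlap. The change was 1.21 on the log2 scale in control cells (SE 0.078, adjusted p = 2.51e-05), with 1.18 in MDA-MB-231 and 1.24 in Hs578T. In KO cells it was 0.07 (adjusted p = 0.983), and the difference between genotypes was 1.14 (SE 0.11, adjusted p = 0.000952).

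**Figure D1:**
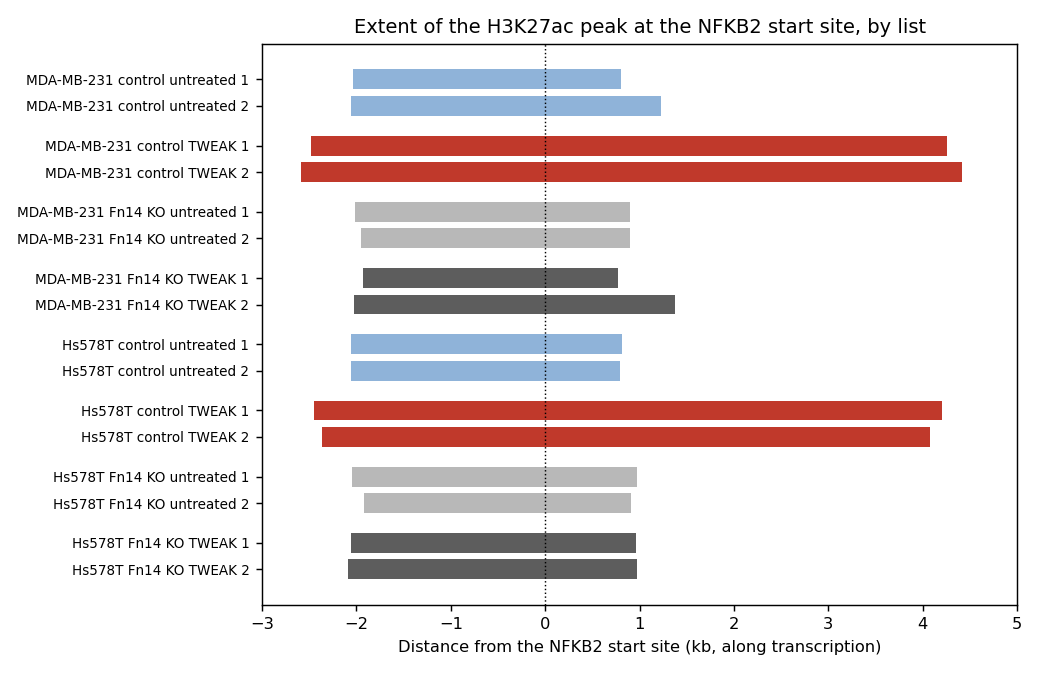
The NFKB2 promoter peak in each of the 16 lists, drawn as a bar from its left to its right edge, with distance from the start site in kb on the x axis and lists grouped by line, genotype and treatment on the y axis. In the 4 TWEAK control lists the bars extend to between 4080 and 4418 bp past the start site, against 772 to 1377 bp in all other lists.

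The extra width lay on both sides of the start site. The right edge of the peak moved from 791 to 1221 bp past the start in untreated control lists to 4080 to 4418 bp in TWEAK control lists, into the gene body. A stretch of 1857 bp downstream of the start (chr10:102396927-102398783) was covered in all 4 TWEAK control lists and no untreated control list, and so was a stretch of 307 bp upstream of it. KO lists touched at most 243 bp of the downstream stretch, in 2 lists. Among all genes with a promoter peak in every list, 2.74% changed in promoter peak width after TWEAK in control cells, 0.00917% in KO cells, and 0.725% differed between genotypes. NFKB2 was the 1 subunit gene of 5 called, and widths of the NFKB1, RELA, REL and RELB peaks were not called in any of these 3 comparisons. The width measure was added after the data had been seen.

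The height of the NFKB2 promoter peak moved with its width. Fold enrichment in MDA-MB-231 control cells was 22.3 and 28.1 untreated and 38.0 and 31.4 after TWEAK, and in Hs578T control cells 16.3 and 16.1 untreated and 23.2 and 21.7 after TWEAK. Fn14 KO lists gave 16.2 and 13.7 untreated and 15.2 and 12.6 after TWEAK in MDA-MB-231, and 14.9 and 15.4 untreated and 16.2 and 14.3 after TWEAK in Hs578T. Within each line, both TWEAK control lists were above both untreated control lists, whereas the KO lists of the 2 treatments overlapped. The increase in control cells was 0.42 (log2, SE 0.082, adjusted p = 0.00154), KO cells changed by −0.02 (adjusted p = 1.00), and the effects differed by 0.44 (SE 0.12, adjusted p = 0.0196). The difference between genotypes was no longer called without MDA-MB-231 control TWEAK replicate 1, when it was 0.37 (adjusted p = 0.0543). When peaks were ranked within their list in place of fold enrichment, neither call was made (adjusted p = 0.0550 and 0.206).

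Covered length around NFKB2 also rose in control cells. It was 9336 and 9699 bp untreated and 13212 and 12920 bp after TWEAK in MDA-MB-231, and 8716 and 9977 bp untreated and 12332 and 12048 bp after TWEAK in Hs578T. KO lists ranged from 7326 to 10849 bp, below all 4 TWEAK control lists and overlapping the untreated control lists. The change was 0.43 in control cells (log2, SE 0.093, adjusted p = 0.00373) and 0.08 in KO cells (adjusted p = 0.999), and the difference of 0.35 between them was not called (adjusted p = 0.0969). With peaks at other genes' start sites left out, the change in control cells was 0.80 (adjusted p = 0.000165) and the difference between genotypes 0.84 (adjusted p = 0.00323).

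NFKB1, which encodes p105 and p50, gained H3K27ac along its gene body rather than in the width of its promoter peak. Covered length was 6577 and 8966 bp in untreated and 12011 and 13595 bp in TWEAK-treated MDA-MB-231 control cells. In control cells of Hs578T it was 9272 and 8971 bp untreated and 14916 and 13214 bp after TWEAK. In KO cells it was 6950 and 6368 bp untreated and 5530 and 5805 bp after TWEAK in MDA-MB-231, and 11803 and 10801 bp untreated and 10944 and 9905 bp after TWEAK in Hs578T. The 4 TWEAK control lists thus held the 4 highest values of all 16, the next being an Hs578T KO list. Across lines the change was 0.66 in control cells (log2, 1.58-fold, SE 0.072, adjusted p = 3.12e-05), with 0.68 in MDA-MB-231 and 0.64 in Hs578T, and −0.13 in KO cells (adjusted p = 0.999).

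The difference between genotypes in the NFKB1 response was 0.79 (SE 0.10, adjusted p = 0.000409). An exact permutation test on this value, two-sided, gave p = 0.00154, the smallest it can give. Within control cells alone the smallest p of the exact permutation test is 0.0556, over 36 arrangements. NFKB1 and NFKB2, which were higher after TWEAK, and RELA, which was lower, were at this limit. Measured in the gene body alone, the change in control cells was 1.14.

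**Figure D2:**
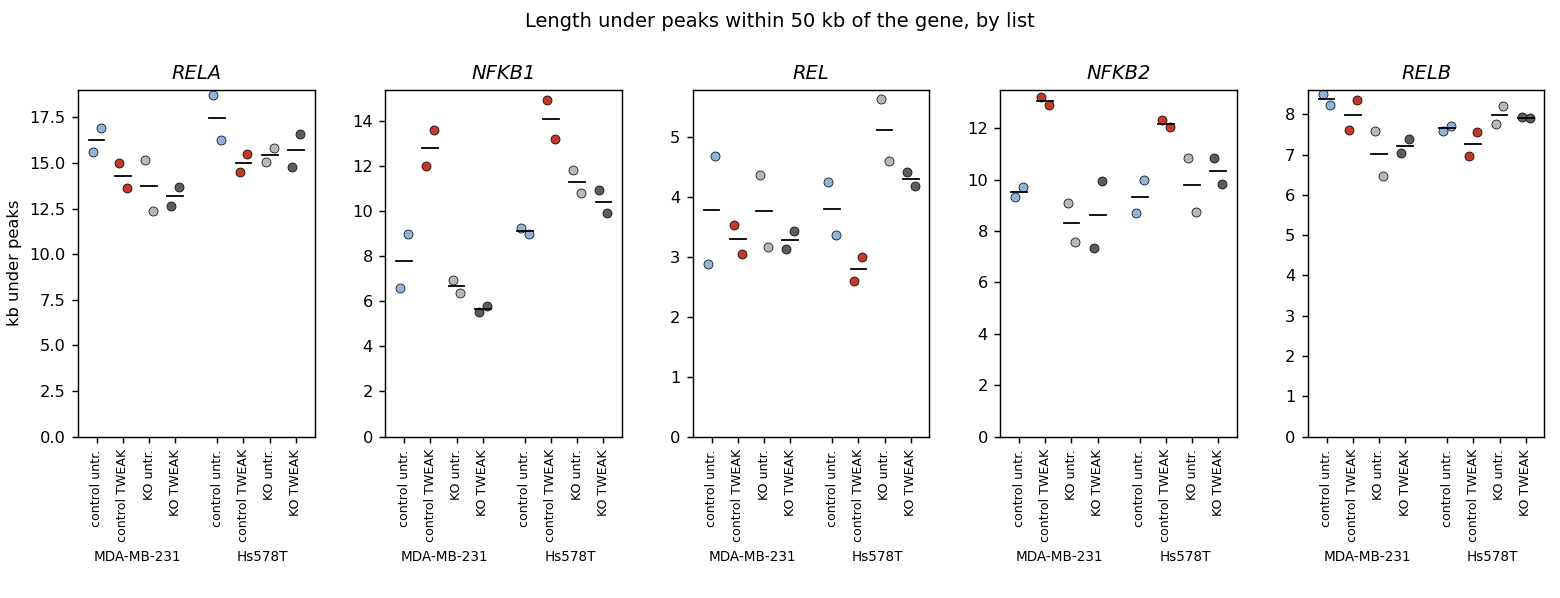
Covered length in kb (y axis) for each subunit gene in the 16 lists, with points for single lists, bars for group means and columns for line, genotype and treatment. NFKB1 and NFKB2 points in the TWEAK control columns lie above those in the other columns of the same line, whereas REL ranges from 2604 to 5645 bp and RELB from 6455 to 8506 bp.

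Of the genes tested, 29.1% were called for covered length in control cells after TWEAK, and 2 of the 5 subunit genes, NFKB1 and NFKB2, were among them. In single lines the shares were 16.9% in MDA-MB-231 and 13.4% in Hs578T, with the same 2 genes called in each, NFKB2 close to the threshold (adjusted p = 0.0378 and 0.0478). The NFKB2 call in a single line was lost without any 1 of that line's 4 control lists, at an adjusted p of up to 0.201 in MDA-MB-231 and 0.246 in Hs578T, and in Hs578T also without 8 lists of other groups, all 4 MDA-MB-231 control lists, both MDA-MB-231 KO untreated and both Hs578T KO TWEAK lists (adjusted p up to 0.0624). In Fn14 KO cells 0% of genes were called by limma, with 681 at an unadjusted p under 0.05, and no subunit gene was called. The response differed between genotypes for 13.5% of genes and for 1 subunit gene, NFKB1.

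Along NFKB1 the gain could be placed at single regions. Its window held 12 consensus regions, of which 5 had a peak in all 16 lists and 4 were gained in both lines, meaning a peak in both TWEAK and neither untreated control list. The strongest was an intronic region at +51.5 kb (chr4:102552024-102553791), with fold enrichments of 6.35 and 7.89 in MDA-MB-231 and 7.74 and 7.92 in Hs578T TWEAK control lists and no peak in any other list. A second intronic region at +63.0 kb (chr4:102563669-102565040) had 3.67, 3.25, 3.49 and 2.76 in the same lists and again no peak elsewhere. These regions hold the NFKB1 sequences printed above.

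The other 2 gained NFKB1 regions were weaker than that at +51.5 kb and lay near the 3′ end of the gene, overlapping exons. The region at +106.7 kb (chr4:102607538-102608542) had fold enrichments of 3.10, 2.54, 2.96 and 3.14 in the TWEAK control lists, and 1 of the 8 KO lists (Hs578T untreated replicate 1) had a peak of 3.07. The region at +111.6 kb (chr4:102612453-102613467) had 2.75, 2.60, 3.07 and 3.65, with 1 KO peak of 2.60 in Hs578T TWEAK replicate 1. Both were thus close to the threshold of peak calling. Their values overlapped those of the region at +63.0 kb, whose highest was 3.67. With a stricter q-value threshold, or with equal numbers of peaks, MDA-MB-231 had 3 gained NFKB1 regions and Hs578T had 2.

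**Figure D3:**
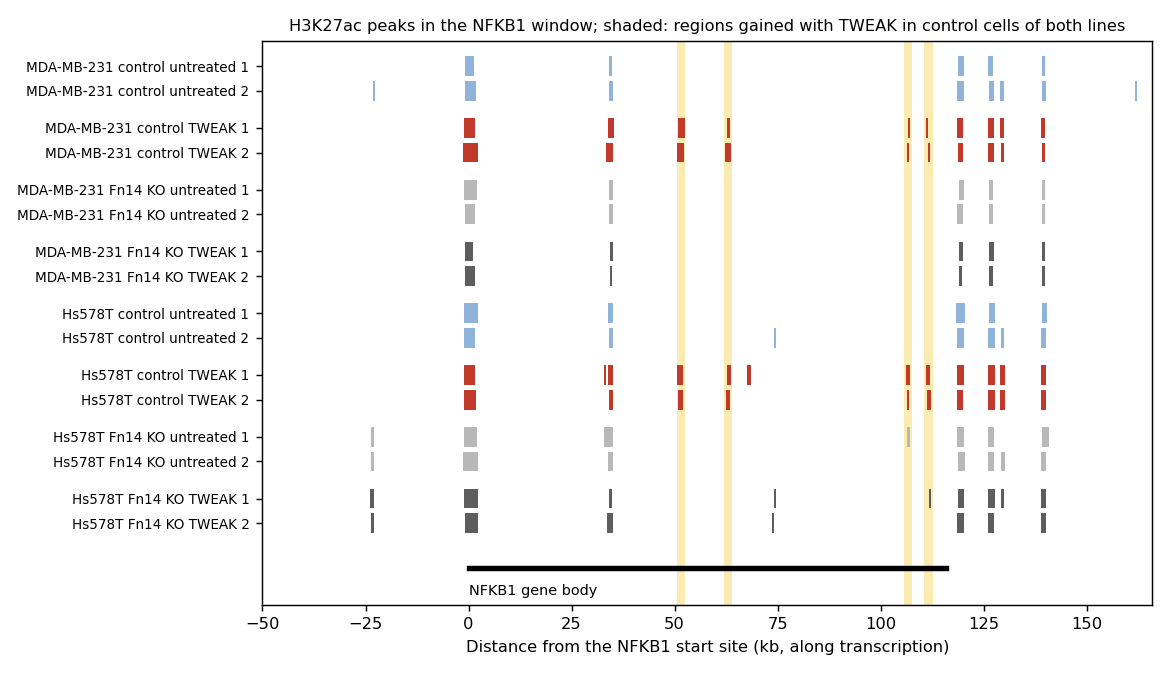
Peaks around NFKB1 in each of the 16 lists, with distance from the start site in kb on the x axis and lists on the y axis, the gene drawn below them, and the 4 regions gained in both lines shaded. Peaks are drawn at least 0.5 kb and shaded regions at least 2 kb wide for visibility. The shaded columns hold peaks in the 4 TWEAK control lists and, for the last 2, in 1 KO list each.

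Over all protein-coding genes with a consensus region in their window, 20.2% held a region gained in MDA-MB-231 control cells, 18.2% one gained in Hs578T and 9.7% one gained in both, and NFKB1 was the 1 subunit gene of 5 in each count. Regions lost after TWEAK were found in MDA-MB-231 control cells at 18.5% of genes and at 1 subunit gene, RELA, where a weak region in an exon of the neighbour SIPA1 (chr11:65645092-65646144) was lost. In Hs578T KO cells 5.15% of genes held a gained and 4.04% a lost region, which applied to NFKB1 (an intronic region at chr4:102574937-102575880) and NFKB2 (a region between genes at chr10:102439914-102440751), respectively. These were present in 3 lists each and were not called with the stricter threshold.

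RELA, the p65 subunit, was called after TWEAK for promoter enrichment and not for covered length. Fold enrichment in MDA-MB-231 control cells was 26.7 and 28.2 untreated and 40.5 and 37.7 after TWEAK, and in Hs578T control cells 18.1 and 17.3 untreated and 24.9 and 19.3 after TWEAK. KO lists gave 22.9 and 16.3 untreated and 19.1 and 16.6 after TWEAK in MDA-MB-231, and 17.4 and 17.0 untreated and 16.8 and 16.3 after TWEAK in Hs578T. In control cells of both lines the TWEAK lists were above the untreated lists without overlap, but in Hs578T 1 TWEAK list was close to them. The increase in control cells was 0.36 (log2, SE 0.086, adjusted p = 0.00557), with 0.46 in MDA-MB-231 (adjusted p = 0.0176) and 0.26 in Hs578T (adjusted p = 0.196). It differed from KO cells by 0.42 (SE 0.12, adjusted p = 0.0304), a call close to the threshold. It was lost without MDA-MB-231 control untreated replicate 2, control TWEAK replicate 1, KO untreated replicate 1 or KO TWEAK replicate 2, and without Hs578T control untreated replicate 2, control TWEAK replicate 1 or any 1 of the 4 Hs578T KO lists (adjusted p up to 0.0753). Ranked within lists, the RELA increase was not called (adjusted p = 0.152). Covered length around RELA ranged from 12344 to 18705 bp over the 16 lists and changed by −0.15 in control cells (adjusted p = 0.108).

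The NFKB1 promoter peak was 34.7 and 31.6 fold enriched in untreated and 39.5 and 40.1 in TWEAK-treated MDA-MB-231 control cells, and 19.0 and 20.0 untreated and 27.6 and 22.2 after TWEAK in Hs578T control cells. TWEAK lists were higher than untreated lists in both lines without overlap, but the change of 0.26 was not called (adjusted p = 0.0678). Of the genes tested, promoter enrichment was called for 26% after TWEAK in control cells, and for 2 of 5 subunit genes, NFKB2 and RELA. In MDA-MB-231 alone 15.7% of genes and the same 2 subunit genes were called, and in Hs578T alone 9.73% of genes and NFKB2. These calls rested on single lists: in MDA-MB-231 NFKB2 was lost without control untreated or control TWEAK replicate 1 (adjusted p = 0.181 and 0.240) and RELA without any 1 of the 4 control lists (up to 0.119), and in Hs578T NFKB2 was lost without any 1 of the 4 control lists (up to 0.172). In KO cells 0% of genes were called by limma (474 at an unadjusted p under 0.05), and the response differed between genotypes for 13.5% of genes, NFKB2 and RELA among them.

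**Figure D4:**
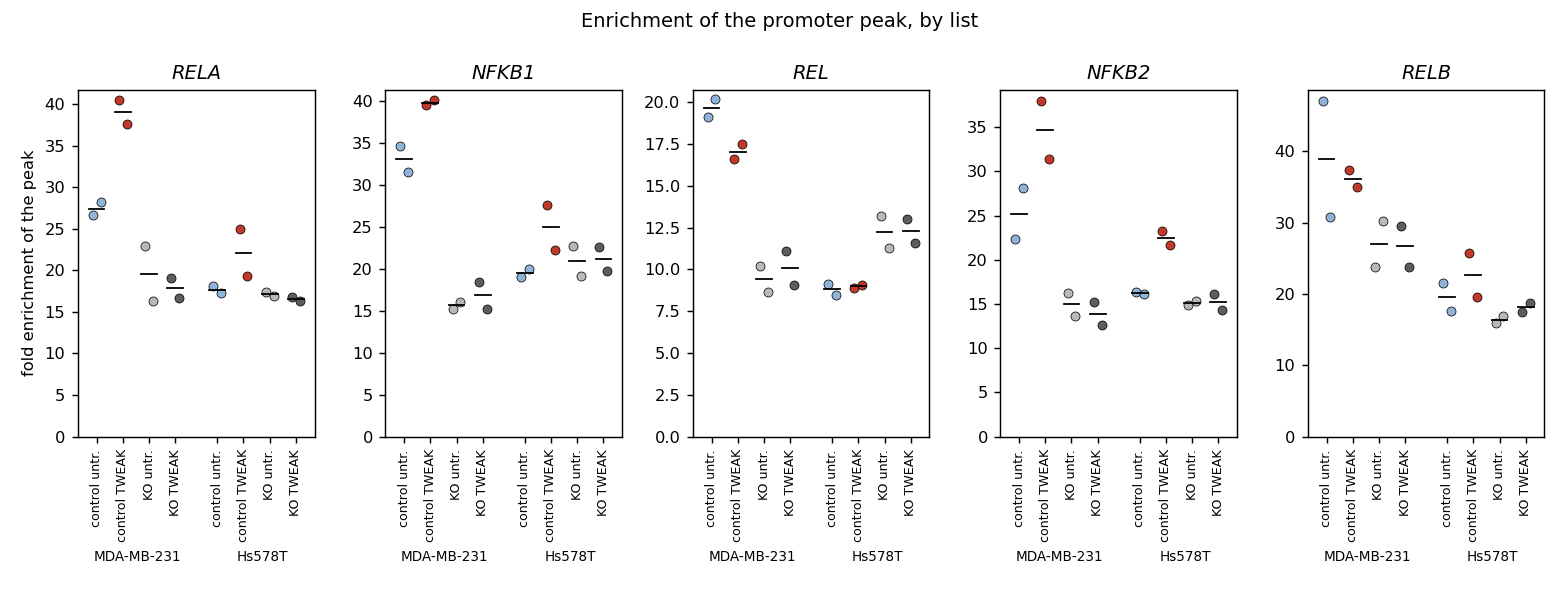
Fold enrichment of the promoter peak (y axis) of each subunit gene in the 16 lists, with points for single lists, bars for group means and columns for line, genotype and treatment. RELA and NFKB2 points are higher in TWEAK than in untreated control columns of each line, RELB points of the 2 treatments overlap, and MDA-MB-231 control lists lie above Hs578T control lists for REL.

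REL, the haematopoietic c-Rel subunit, and RELB, the partner of p52, were not called for any measure after TWEAK. REL promoter fold enrichment was 19.1 and 20.2 untreated and 16.6 and 17.5 after TWEAK in MDA-MB-231 control cells, and 9.11 and 8.50 untreated and 8.91 and 9.07 after TWEAK in Hs578T control cells. The REL values of MDA-MB-231 were lower after TWEAK without overlap, and those of Hs578T overlapped. The mean change in control cells was −0.14 (adjusted p = 0.186), with a 95% interval of −0.29 to 0.02. Around REL only 2 consensus regions were found, the promoter and an intronic region of the neighbour PUS10 (chr2:60948618-60950112) with a peak in 7 of 8 KO lists and 2 of 8 control lists, both untreated.

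RELB had the highest single promoter value of the 5 genes, 47.1 in an untreated MDA-MB-231 control list, but its replicates were far apart. Fold enrichment was 47.1 and 30.8 untreated and 37.4 and 35.0 after TWEAK in MDA-MB-231 control cells, and 21.6 and 17.7 untreated and 25.7 and 19.5 after TWEAK in Hs578T control cells. In both lines the values of the 2 treatments overlapped, and the change was 0.01 (adjusted p = 0.956), with a 95% interval of −0.31 to 0.34. Covered length changed by −0.02 (adjusted p = 0.808), and the 5 regions in the RELB window each had a peak in all 16 lists. The RELB promoter peak was narrow throughout, at 1099 to 1914 bp.

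Set side by side, the subunits did not divide by arm. Of the canonical genes, NFKB1 was called for covered length and RELA for promoter enrichment, and REL for neither. Of the non-canonical genes, NFKB2 was called for covered length, promoter enrichment and width, and RELB for none. The p105 and p100 precursor genes were thus called for covered length (0.66 and 0.43), and the genes of the transactivating subunits were not, with −0.15 for RELA, −0.19 for REL (adjusted p = 0.110) and −0.02 for RELB. Of all genes, 29.1% were called for this measure. In the 100 kb window RELA and REL were called as well, so this grouping depends on the window. No p-value was computed for the arms as groups, since members are not replicates.

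**Figure D5:**
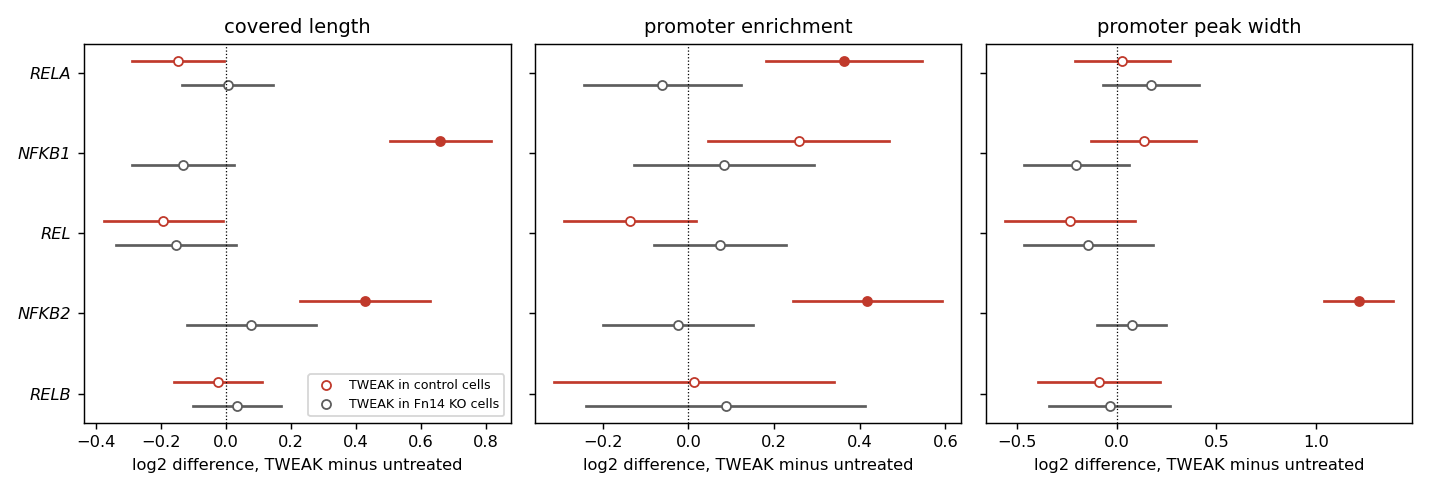
The log2 change after TWEAK (x axis) of each subunit gene for the 3 measures, in control and in Fn14 KO cells, with points for the limma estimate, lines for its 95% confidence interval and filled points for an adjusted p under 0.05. Filled points are found in control cells only, for NFKB1, NFKB2 and RELA. All points of KO cells are open, which does not show that their changes were 0.

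Comparisons of Fn14 KO with control cells after TWEAK share the TWEAK control lists with the comparisons above, so they are not separate support for them. After TWEAK, covered length was lower in KO cells at NFKB1 by −0.72 on the log2 scale (adjusted p = 1.37e-05) and at NFKB2 by −0.39 (adjusted p = 0.00637) and higher at REL by 0.24 (adjusted p = 0.0473), 3 of 5 members against 31.2% of all genes. The REL call was lost in 8 of 11 other settings, among them without centring (adjusted p = 0.207) and in the gene body alone (0.03, adjusted p = 0.897), with the other 6 at an adjusted p of 0.0513 to 0.0569, and without any 1 of the 4 Hs578T TWEAK lists, the 4 MDA-MB-231 KO lists or MDA-MB-231 control TWEAK replicate 2 (adjusted p up to 0.179). Promoter enrichment was lower at NFKB2 (−0.73, adjusted p = 1.23e-05), RELA (−0.56, adjusted p = 0.000186) and NFKB1 (−0.53, adjusted p = 0.000929), again 3 of 5 against 30.2%. Without TWEAK no member was called over both lines, against 2.77% of genes for covered length and 2.12% for promoter enrichment. In MDA-MB-231 alone, where 11.8% of genes were called, promoter enrichment was lower in untreated KO cells at NFKB1 (−0.73, adjusted p = 0.00453), REL (−0.71, adjusted p = 0.000741) and NFKB2 (−0.40, adjusted p = 0.0345). The NFKB1 call was lost without MDA-MB-231 control untreated replicate 1 (adjusted p = 0.0647) and the NFKB2 call without any 1 of the 4 untreated lists of that line (up to 0.175), and both were lost when ranked within lists (0.562 and 0.698), whereas the REL call was made in each of these settings. The lower −log10 q-values of the MDA-MB-231 KO lists move with these differences, and their part was not tested. Over both treatments, an exact permutation test on single covered length values, two-sided, gave p = 0.0154 for REL, higher in KO cells, and p = 0.0340 for NFKB2 and 0.0432 for RELA, lower in KO cells. In this test REL alone kept its call without MDA-MB-231 control TWEAK replicate 1 or Hs578T KO untreated replicate 2 and with the replicate block, and NFKB2 alone without centring of the lists. Without centring, the median gene stood at −0.14 for promoter enrichment in KO against control cells untreated and at −0.20 after TWEAK, and the changes given are relative to it.

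The contrast of KO with control cells was not the same in the lines. Which clones entered the ChIP-seq is not stated. In any comparison of KO with control cells, a difference between clones could therefore not be told apart from the knockout. REL promoter fold enrichment in MDA-MB-231 was 10.2 and 8.68 in KO untreated and 11.1 and 9.06 in KO TWEAK lists, below all 4 control lists (16.6 to 20.2). In Hs578T it was 13.2 and 11.3 in KO untreated and 13.0 and 11.6 in KO TWEAK lists, above all 4 control lists (8.50 to 9.11). Hence the direction was opposite, and the difference between lines, a contrast added after the data had been seen, was 0.94 (log2, SE 0.10, adjusted p = 5.08e-05).

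NFKB1 promoter fold enrichment in MDA-MB-231 was 15.2 and 16.1 in KO untreated and 18.4 and 15.2 in KO TWEAK lists, below all control lists of the line. In Hs578T it was 22.7 and 19.1 in KO untreated and 22.6 and 19.7 in KO TWEAK lists, which overlapped the control lists. The contrast of KO with control cells differed between lines by 0.66 (SE 0.14, adjusted p = 0.00548), and for NFKB1 covered length by 0.40 (adjusted p = 0.0283). The latter was lost without any 1 of 7 lists, namely MDA-MB-231 control untreated replicate 2, control TWEAK replicate 2, KO untreated replicate 1 and KO TWEAK replicate 1, and Hs578T control TWEAK replicate 2, KO untreated replicate 1 and KO TWEAK replicate 1 (adjusted p up to 0.0677). It was also lost in the gene body alone (0.30, adjusted p = 0.277) and in the 100 kb window (0.26, adjusted p = 0.0662). Ranked within lists, the NFKB1 promoter difference was 0.82 percentile points and not called (adjusted p = 0.835), whereas that of REL remained called under every alternative run. REL and NFKB1 were the 2 members called for promoter enrichment, against 17.3% of genes, and NFKB1 the 1 called for covered length, against 9.91%. The lower −log10 q-values of the MDA-MB-231 KO lists move with this contrast, and their part in it was not tested.

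Between the lines, all 5 promoters were less enriched in Hs578T than in MDA-MB-231 control cells, from −0.35 for NFKB2 to −0.77 for REL on the log2 scale, where 41.4% of genes were called. Without centring the median gene was at −0.25, so these differences are relative to that shift. Ranked within lists, REL remained called and the other 4 were not, and for NFKB1 the direction turned (0.17 percentile points higher in Hs578T, adjusted p = 0.946). The RELB call was also lost without MDA-MB-231 control untreated replicate 1 (−0.36, adjusted p = 0.0536). For covered length 19.7% of genes and 1 member, RELB, were called (−0.21, adjusted p = 0.0321), a call that was lost without centring (adjusted p = 0.321) and without any 1 of the 8 control lists except MDA-MB-231 untreated replicate 2 (adjusted p up to 0.129). No member was called for a difference in the TWEAK response between the lines, but limma called almost no gene for it (0.0361% for covered length, 0% for promoter enrichment with 696 genes at an unadjusted p under 0.05, and 0.119% for width), so this does not show that the lines responded alike.

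Of 18 further genes of the pathway, receptors, adaptors, kinases and inhibitors, 11 were called for covered length after TWEAK in control cells, 10 up and 1 down (29.1% of all genes), with a median of 0.23 over the list against −0.01 over all 16613 genes. TNFAIP3, the A20 deubiquitinase that dampens NF-kB signalling, changed most (1.74, SE 0.084, adjusted p = 3.52e-08), more than any subunit gene. It was followed by BIRC2 and BIRC3 (1.13 and 1.09), neighbouring genes for the cIAP ubiquitin ligases whose windows overlap. NFKBIA, the gene of IkB alpha, and NFKBIZ rose by 0.71 and 0.63, and TRAF2, an adaptor of Fn14, by 0.37. In KO cells 0 of the 18 were called, and none of these 6 moved beyond −0.08 to 0.04. The response differed between genotypes for 9 of 18, against 13.5% of all genes. For promoter enrichment 11 of the 17 genes tested were called in control cells, 10 up and BCL3 down, against 26% of all genes, and 0 in KO cells. BCL3 was called higher in control cells for covered length and for promoter peak width. IKBKG, the gene called down for covered length, was called up for promoter enrichment.

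The genes on other chromosomes whose covered length followed that of each subunit gene most closely over the 16 lists are given as a description, since all share the same lists. NFKB1 was followed by ERN1, the IRE1 sensor of endoplasmic reticulum stress (Pearson r of 0.953), KLHDC8A (0.951) and EHD1 (0.942), and NFKB2 by SCN1A, a sodium channel gene (0.927), CBY1 (0.922) and ARL6IP5 (0.908). For RELA these were ENSG00000274322 (0.858), ZNF330 (0.856) and MACC1 (0.821), for REL GNL3 (0.863) and the chromosome 20 neighbours CRLS1 and LRRN4 (both 0.857), and for RELB PNMA5 (0.940) and TMEM134 (0.933). Among the members themselves, NFKB1 and NFKB2 were closest to each other, with an r of 0.66, and the remaining pairs ranged from −0.50 to 0.33.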

How the data were processed

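H3K27ac ChIP-seq was performed on 16 samples, in 8 groups of 2 assigned from the sample titles. Per the study's methods, the authors used Trimmomatic for trimming, Bowtie2 for alignment to hg38, MACS2 with input subtraction for peaks, 1 list per sample, and bedtools to drop blacklisted regions. Tool versions are not given in the sources used here. For each peak the deposited lists hold a score, the fold enrichment (a ratio over local background, written by the authors' MACS2 run), and −log10 p-values and −log10 q-values, also as deposited. The deposited score equals 10 times the −log10 q-value without its decimals and was not used. The deposited −log10 q-values served only to filter or trim lists and for the medians given. The lists hold no reads, so the depth behind each value is unknown, and intervals given come from the spread between lists.

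From the lists, covered length (base pairs under peaks in the GENCODE 44 gene body extended by 50 kb), promoter enrichment (highest fold within 2 kb of the start site) and promoter peak width were computed for protein-coding genes in Python 3.11.15 (numpy 2.4.6, pandas 2.3.3, scipy 1.17.1, matplotlib 3.10.9). Genes with a mean of at least 1 kb covered, or with a promoter peak in all 16 lists, were tested on the log2 scale, covered length with a pseudocount of 1 kb, with each list centred on its median. limma 3.58.1 (R 4.3.3) was fitted to the 8 group means with Benjamini-Hochberg adjustment over all genes and a threshold of 0.05. Single covered length values were also tested by exact permutation, two-sided. The scripts were tested on simulated data. Regions were peaks merged across lists and present in at least 2, called gained with a peak in both TWEAK and neither untreated list, and lost for the reverse. kappaB and AP-1 motifs were searched on both strands of RefSeq promoters (GRCh38.p14, identical in sequence to hg38 for all 35116 entries used) and of regions.

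The 5 genes, the 18 pathway genes, the tests and the lists were chosen with earlier results of these data known. Named were the 5 genes, the up to 6 called pathway genes with the largest covered length change in control cells, the 3 genes on other chromosomes most correlated with each member, and regions gained or lost in a member's window. A marker gene and a correlated gene are not reported here. Alternatives were other windows, centring, thresholds, pseudocount, filters, scales, a mean-variance trend, a replicate block and leaving out each list. Promoter peak width, the permutation tests of promoter measures and the contrast of KO effects by line, and the alternatives for untreated MDA-MB-231 KO against control cells, were added after the data had been seen.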

Additional observations from a re-analysis of the deposited data

Results flagged for a closer look

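The response to TWEAK differed between control and Fn14 KO cells, by the limma test of the difference itself, for 3 subunit genes over the 3 measures together. Control minus KO, the difference was 1.14 on the log2 scale for NFKB2 promoter peak width, 0.79 for NFKB1 covered length, 0.44 for NFKB2 promoter enrichment and 0.42 for RELA promoter enrichment. Of all genes tested, 0.725% differed in this way for width, the measure added after the data had been seen. For covered length and for promoter enrichment the share was 13.5% each. Ranked within lists, neither promoter difference was called (adjusted p = 0.206 for NFKB2 and 0.326 for RELA), and the RELA call was lost without any 1 of 10 lists and the NFKB2 call without 1. The contrast of KO with control cells, in which clone and knockout could not be told apart, differed between the lines for 2 genes. Hs578T minus MDA-MB-231, this difference was 0.94 for REL promoter enrichment, 0.66 for NFKB1 promoter enrichment and 0.40 for NFKB1 covered length, the last lost without any 1 of 7 lists. Of all genes tested, 17.3% were called for this contrast in promoter enrichment and 9.91% in covered length. The MDA-MB-231 KO lists had lower median −log10 q-values (5.79 to 7.69) than the control lists of that line (9.44 to 10.8), and the part of this in the differences between lines was not tested.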

How the results depend on the processing

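NFKB1 covered length after TWEAK in control cells and by genotype, NFKB2 covered length after TWEAK, and NFKB2 promoter peak width after TWEAK and by genotype were called under every alternative run and without any 1 list. Leaving out 1 list gave 0.60 to 0.72 for NFKB1 covered length, 0.37 to 0.48 for NFKB2 covered length and 1.19 to 1.24 for NFKB2 width in control cells. NFKB1 reached 1.14 in the gene body alone, and NFKB2 covered length fell to 0.22 in the 100 kb window, where RELA and REL were also called.

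Counts of subunit genes called moved as follows. For covered length, the 100 kb window gave 4 (main 2) in control cells, 1 (main 2) in MDA-MB-231, 1 (main 0) for untreated KO against control and 0 (main 1) between lines. The count in MDA-MB-231 was also 1 without centring, with the replicate block and with a pseudocount of 0.1 kb. In Hs578T it was 1 (main 2) in these 3 settings, with the stricter q-value threshold, with equal peak numbers and without the low filter. By genotype it was 2 (main 1) with the 25 kb window, the gene body alone or peaks at other starts left out. Between lines it was 0 without centring, with the block, in the gene body or without other starts, and 2 with the 25 kb window.

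For promoter enrichment, ranking within lists gave 0 after TWEAK in control cells (main 2), in MDA-MB-231 (main 2), in Hs578T (main 1) and by genotype (main 2), 1 (main 3) for KO against control after TWEAK and 1 (main 5) between lines, where NFKB1 turned to 0.17 percentile points. Without centring the count was 0 in Hs578T and 2 (main 0) for untreated KO against control, also 2 with a mean-variance trend. In the permutation test of single values, by genotype gave 2 (main 1) without other starts, and KO against control gave 1 (main 3) with the block (REL) or without centring (NFKB2).

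Of regions, the 100 kb window gave 2 lost in MDA-MB-231 control cells (main 1), 1 lost in Hs578T control cells (main 0) and 1 lost in MDA-MB-231 KO cells (main 0). The stricter threshold or equal peak numbers gave 2 gained in Hs578T control cells (main 4) and 0 gained or lost in Hs578T KO cells (main 1 each). Requiring 50% coverage left 3 of the 4 NFKB1 regions in MDA-MB-231 control cells and gave 0 gained in Hs578T KO cells, and 1 gained and 1 lost in MDA-MB-231 KO cells (main 0).

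Without 1 list, counts ranged from 1 to 2 for covered length in MDA-MB-231, in Hs578T and by genotype, from 0 to 1 between lines, from 0 to 2 for promoter enrichment in MDA-MB-231 and by genotype, from 0 to 1 in Hs578T, from 1 to 2 for single values by genotype and from 1 to 3 for KO against control. Lost regions ranged from 1 to 3 in MDA-MB-231 control, 0 to 2 in Hs578T control, 0 to 1 in MDA-MB-231 KO and 1 to 3 in Hs578T KO cells, and gained regions from 1 to 2 in Hs578T KO cells.

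Replicates with the same number did not deviate together (correlations from −0.19 to 0.13), so the numbers were not treated as pairing the lists. The cause of these changes was not tested. Counts over all genes ranged over the alternatives from 2179 to 6350 (main 4838) for covered length and 1855 to 3104 (main 2835) for promoter enrichment after TWEAK in control cells. Without 1 list, single-line counts ranged from 1256 to 2965 (main 2803) in MDA-MB-231 and 686 to 2384 (main 2227) in Hs578T for covered length, and from 767 to 1732 (main 1707) and 421 to 1058 (main 1061) for promoter enrichment. Without centring, the share of promoter calls that were higher went from 46.7% to 63.1% after TWEAK in control cells, from 50.7% to 8.31% for KO against control after TWEAK and from 52.5% to 7.19% between lines. With 2 lists a group and no read depth, small changes at these genes could have been missed.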
